A study of Mus musculus with 24 samples.

Results

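Transcripts of the hexosamine pathway and of O-GlcNAc transfer were measured in mouse bone marrow derived macrophages labelled as lacking the glucose transporter GLUT1 and in floxed controls. The 9 genes were Gfpt1, Gfpt2, Gnpnat1, Pgm3, Uap1, Amdhd2, Gnpda1, Nagk and Ogt, taken by name out of 37325 gene names on the array, by a rule that reads no measured value. They were covered by 21 of 56605 gene probes. All 9 genes had at least 1 probe that could be tested, 19 of the 21 probes were tested, and 16 of the 21 were well above background on all 24 arrays.

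The cells came from LysM-Cre X Slc2a1 fl/fl mice (KO), in which Cre recombinase driven from the lysozyme gene is to remove floxed Slc2a1 in myeloid cells, or from Slc2a1 fl/fl floxed controls (WT), so that both genotypes carried the floxed alleles. Marrow was grown for 6 days in 20 ng/ml M-CSF, which drives marrow precursors to become macrophages. For the next step the cells of each genotype stayed without activator (M0), received 5 ng/ml LPS with 10 ng/ml IFNγ (M1), or received 10 ng/ml IL-4 (M2), each for 24 h. The 6 groups had 4 biological replicates each, on 24 one-colour arrays. No source used here gives the animals' age. KO and WT are used below as the labels give them.

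The hexosamine pathway takes fructose 6-phosphate out of glycolysis and, with glutamine, acetyl-CoA and UTP, builds UDP-GlcNAc, the sugar donor for N-glycans, hyaluronan and many other glycans. The same donor serves O-GlcNAc transferase, which attaches single GlcNAc residues to serines and threonines of nuclear and cytosolic proteins. A salvage branch feeds GlcNAc from degraded glycans back into the pathway, and further enzymes return its intermediates towards glycolysis. In macrophages, UDP-GlcNAc synthesis is known for its role in activation by IL-4.

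Promoter windows are shown for 4 of the 6 genes that the data below place higher in KO M1 arrays than in WT M1 arrays. These 4 are also the ones whose window held a motif marked here. Gfpt2 and Gnpda1 were higher too, but the Gfpt2 window held none of the motifs and no window was available for Gnpda1. Each window shown runs from 150 bases before to 30 bases after the annotated start, 5′ to 3′ on the gene's strand. It was taken from RefSeq on GRCm38.p6. Capitals mark 3 motifs, searched on both strands, with the longest match capitalised where matches overlap. The shortest was ACGTG, which reads as its complement CACGT where it lies on the other strand. The longest, TGACGTG, is a core bound by the unfolded protein response factor XBP1 and by CREB and ATF family factors, and CACGTG is the E-box core bound by MYC and the TFEB family.
Uap1: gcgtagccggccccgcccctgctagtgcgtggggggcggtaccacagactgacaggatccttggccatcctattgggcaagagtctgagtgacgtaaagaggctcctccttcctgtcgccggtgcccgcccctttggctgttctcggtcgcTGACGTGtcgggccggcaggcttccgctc
Gfpt1: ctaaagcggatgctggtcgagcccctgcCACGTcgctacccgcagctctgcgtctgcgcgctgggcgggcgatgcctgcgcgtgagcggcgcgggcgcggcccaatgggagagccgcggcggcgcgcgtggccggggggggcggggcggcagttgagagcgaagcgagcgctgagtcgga
Pgm3: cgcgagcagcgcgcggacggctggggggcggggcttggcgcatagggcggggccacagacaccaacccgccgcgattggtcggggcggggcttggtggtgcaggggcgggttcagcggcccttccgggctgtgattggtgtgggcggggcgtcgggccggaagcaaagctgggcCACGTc
Amdhd2: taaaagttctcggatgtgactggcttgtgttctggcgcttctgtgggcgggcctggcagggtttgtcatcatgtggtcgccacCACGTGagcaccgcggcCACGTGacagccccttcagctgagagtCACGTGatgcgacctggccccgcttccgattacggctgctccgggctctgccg

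The Uap1 window, chr1:170174935-170175114 on the minus strand, held 1 TGACGTG, with its ACGTG part beginning at base 4 of the transcript. Gfpt1 (chr6:87042696-87042875, plus strand) held 1 ACGTG on the opposite strand at base -122, and Pgm3 (chr9:86571813-86571992, minus strand) held 1 at base 25. Amdhd2 (chr17:24163704-24163883, minus strand) held 3 CACGTG motifs, which read the same on both strands and so count as 6 overlapping ACGTG matches. Of 32851 windows of this length, 13.3% held ACGTG, 5.09% held CACGTG, 1.53% held TGACGTG and 18 windows (0.05%) held CACGTG at least 3 times. The Gfpt2, Nagk and both Ogt windows held none of these letters. The longer endoplasmic reticulum stress element was in none of the windows of the 7 genes for which a window was available, and in 0.085% of all windows. A match describes the letters and shows no binding.

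Probe positions are given on mm9, the build of the array design. The probe of Gfpt1 with the largest difference between genotypes lies in its coding part at chr6:87027139-87027198, and 2 coding probes of Nagk are shown because they share 17 bases, in capitals, so that their like values are not independent. The first lies at chr6:83750287-83750346, and the second was mapped to chr6:83750330-83751121, a span of 792 bases for a probe of 60 bases.
Gfpt1 A_52_P479435: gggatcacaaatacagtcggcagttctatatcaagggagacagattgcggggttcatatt
Nagk A_66_P136601: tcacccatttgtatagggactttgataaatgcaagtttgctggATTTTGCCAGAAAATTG
Nagk A_55_P2494138: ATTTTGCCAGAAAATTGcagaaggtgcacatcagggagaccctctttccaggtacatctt

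The share of gene probes well above background ran from 53.1% to 71.4% across arrays, and the 75th percentile of intensity was 1581 ± 88.9 units in KO M1 against 2017 ± 252.5 units in WT M1 (SD, n = 4 each). Each of 3 slides held 1 array of every group and 1 further KO and WT pair, and these 3 pairs form a 4th set. On the 6 arrays of the 4th set the Y-linked Ddx3y, Eif2s3y and Uty were well above background on 0, against 18 of the 18 other arrays, and Xist on 6 of 6 against 2 of 18. Slc2a1 did not pass the test between genotypes, with KO minus WT log2 differences of -0.33 ± 0.35 in M0, 0.25 ± 0.35 in M1 and -0.18 ± 0.35 in M2 (SE; limma, Benjamini-Hochberg adjusted p = 1, 0.584 and 1). No source used here says whether its probe lies in the deleted part, so this value does not check the labels. The 7 macrophage markers found on the array, among them Adgre1 and Csf1r, were well above background on all arrays. Levels below are log2 intensities relative to the array's 75th percentile, from the brightest probe of a gene unless a probe is named, and differences are log2 with the SE of limma's fit over the 24 arrays.

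The pathway differed between genotypes in M1. Of the 9 genes, 7 passed the test, against 43.9% of all 25956 genes tested. The 2 initiating enzymes Gfpt1 and Gfpt2, the later enzymes Pgm3 and Uap1, and the 2 reverse enzymes Amdhd2 and Gnpda1 were higher in KO M1, 6 of 9 against 22.7% of all genes. The salvage kinase Nagk was lower, 1 of 9 against 21.2%. Of these 7 genes, Gfpt2 was kept for testing only through its signal in M1. In 8 of the 9 genes the 4 KO M1 arrays did not overlap the 4 WT M1 arrays, which held for 43.3% of all genes. The median KO minus WT difference was 0.81 over the 9 genes and 0.13 over all genes. None of the 9 genes was free of overlap in M2, where 2.35% of all genes were. In M0 and in M2, 0 of 9 passed limma's test at an adjusted p, and 0 of 9 at an unadjusted p under 0.05, against 0.0539% and 0.0424% of all genes called. In a fit with each same-numbered KO and WT pair as a block these counts were again 0 in M0 and 0 in M2, and 8 in M1, where Ogt joined. Calls rose over all genes as well, as that fit called 14732 of the 25956 genes in M1, 18 in M0 and 79 in M2. In bulk RNA, fewer cells of a type and less RNA per cell cannot be told apart.

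**Figure D1:**
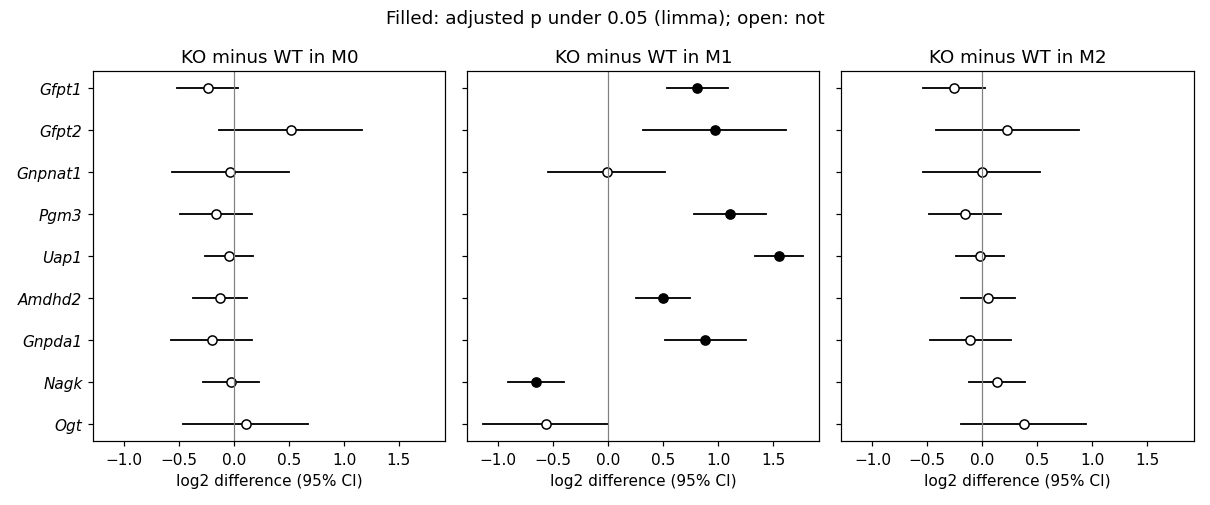
KO minus WT log2 difference of each gene with its 95% confidence interval in M0, M1 and M2, with filled points where the adjusted p was under 0.05. In M1, 6 genes lie to the right of 0 and Nagk to the left with filled points, while every point in M0 and M2 is open.

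Gfpt1 encodes glutamine-fructose-6-phosphate aminotransferase, the enzyme that commits fructose 6-phosphate to the pathway and the step usually held to limit its flux. Its level in replicates 1 to 4 (chr6:87041925-87041984) was 5.06, 4.58, 4.47 and 4.81 in KO M1, against 4.15, 4.09, 3.59 and 3.85 in WT M1. In unstimulated cells it was 2.31, 2.25, 2.26 and 2.06 in KO M0, against 2.56, 2.33, 2.47 and 2.47 in WT M0. All M1 arrays stood above all M0 arrays, the KO M1 arrays above the WT M1 arrays, and the KO M0 arrays just below the WT M0 arrays. The difference between genotypes in M1 was 0.81 ± 0.13, or 1.75-fold (limma, adjusted p = 3.94e-05), and lay between 0.48 and 0.96 in the 4 sets. M1 activation raised Gfpt1 by 2.51 ± 0.13 in KO, a 5.7-fold change, and by 1.46 ± 0.13 in WT, a 2.75-fold change (adjusted p = 4.22e-12 and 1.91e-08). In M0 the KO minus WT difference of -0.24 ± 0.13 did not pass (adjusted p = 1), although the 4 arrays of each genotype did not overlap. Gfpt1 was the only one of the 9 genes without overlap in M0, where 2.15% of all genes had none.

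Over the 9 genes, 16 of 19 tested probes passed between KO and WT in M1, against 45.3% of all 39038 probes tested. Probes of the same gene are not independent, so this count adds no support to the count of genes. It includes the Gfpt2 probe, kept only through its signal in M1, and a Gfpt1 probe that was lower in KO. The 4 tested probes of Gfpt1 gave the same direction for activation and different sizes for the genotype. The coding probe printed above was at 1.58, 1.29, 1.33 and 1.39 in KO M1, against -0.75, -0.15, -0.92 and -0.48 in WT M1. Its difference was 1.97 ± 0.19 or 3.93-fold (limma over all probes, adjusted p = 5.31e-08), and activation raised it by 4.69 in KO and 2.37 in WT. The second probe in the 3′ part, A_55_P2154242, gave 0.81 ± 0.16 between genotypes, as the brightest probe A_51_P270635 did. Probe A_55_P2730411, designed on a separate transcript record at chr6:87004827-87004886, went the other way between genotypes, at -0.52 ± 0.20 (adjusted p = 0.0402). Its KO M1 and WT M1 arrays overlapped, but its difference lay between -0.74 and -0.42 in the 4 sets. The same probe was also lower in KO in M0 (-0.29 ± 0.20) and in M2 (-0.55 ± 0.20), without passing. Its KO M0 and WT M0 arrays did not overlap. Its M1 response differed between genotypes by -0.23 ± 0.28 (limma over all probes, adjusted p = 0.609). Another probe, A_51_P393386, was well above background on 2 arrays, both WT M1, and was not tested.

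Whether probes of a gene differed in their genotype difference in M1 was tested by permuting the 8 M1 arrays, for each of 10 further probes against the brightest probe of its gene. The difference for the coding probe of Gfpt1 exceeded that of its brightest probe by 1.16, and that of A_55_P2730411 differed from it by -1.33. Both had an exact two-sided permutation p = 0.0286, the smallest that 70 arrangements can give. It was 0.0952 after Benjamini-Hochberg adjustment over the 10 probes, so that neither passed. A probe at that smallest p could pass only if most of the 10 probes also reached it, so the test does not decide whether these probes differed. The permutation does not use the KO and WT pairs. Amdhd2 gave the third such value, with 1.09 and the same p values.

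**Figure D2:**
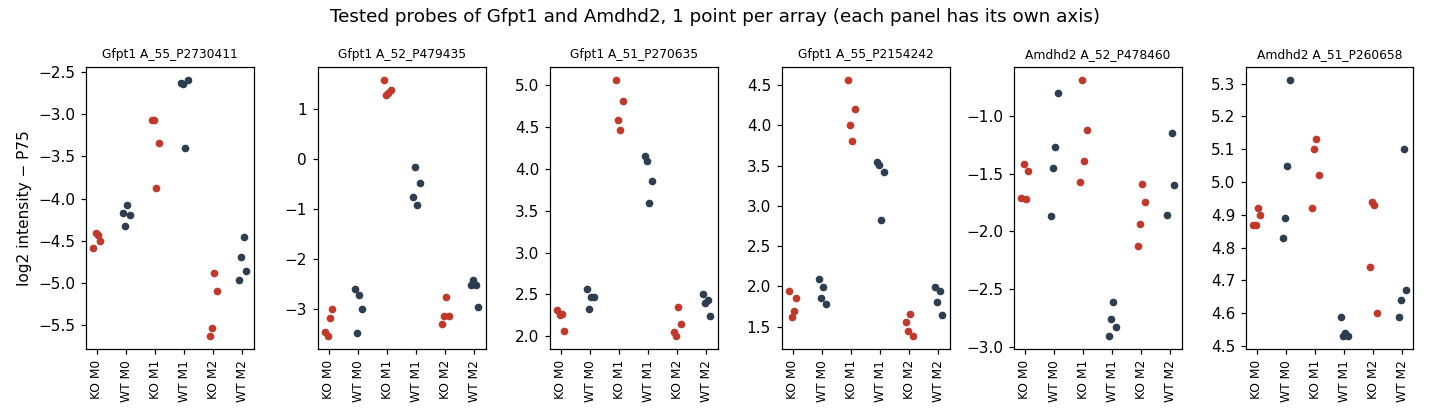
Level on each array (log2 intensity relative to the 75th percentile, 1 point per array, KO in red and WT in dark blue) for the 4 tested probes of Gfpt1 and both of Amdhd2, each panel with its own axis. The coding probe A_52_P479435 has KO M1 points from 1.29 to 1.58 and WT M1 points from -0.92 to -0.15. For A_55_P2730411 the KO M1 points (-3.87 to -3.07) lie lower on average but overlap the WT M1 points (-3.4 to -2.6).

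Gfpt2 encodes a second aminotransferase for the same step. Its probe A_55_P2154252 (chr11:49652045-49652104) was well above background on 4 of 4 KO M1 and 3 of 4 WT M1 arrays, and on 0 arrays of any other group. The filter of at least 4 such arrays thus kept this probe only through its M1 signal, so its calls in M1 give no independent evidence. The probe stood at -3.99, -4.2, -3.96 and -4.04 in KO M1, against -5.04, -4.65, -5.89 and -4.49 in WT M1. The KO arrays lay together and above all WT arrays, which spread more widely. The difference in M1 was 0.97 ± 0.31 or 1.96-fold (limma, adjusted p = 0.0159), and 0.78 with WT values under their array's floor set to that floor. The call rested on the 4th set, whose WT M1 array (replicate 3) was the lowest: without that array the difference was 0.68 ± 0.30 (adjusted p = 0.0769), and without the 4th set 0.65 ± 0.36 (adjusted p = 0.155). With quantile normalization it was 0.64 ± 0.33 (adjusted p = 0.128).

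Against M0, where the signal was not well above background, Gfpt2 was at least 4.43-fold higher in KO M1 than in KO M0. The bound in WT was at least 1.76-fold higher in WT M1 than in WT M0. Each bound sets the mean of the M1 group against the floors of the M0 arrays, the dimmest signals still well above background. Gfpt2 also passed the test between M2 and M0 in WT, but its probe was below background on all arrays of both groups, so no fold is given.

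Gnpnat1 encodes the acetyltransferase that turns glucosamine 6-phosphate into GlcNAc 6-phosphate. Its level (chr14:45997520-45997579) was 0.21, 0.32, -0.11 and 0.51 in KO M1, against 0.37, 0.33, -0.13 and 0.41 in WT M1. The 2 genotypes overlapped in each state, and limma's test passed in none of the 10 comparisons. The 95% interval of the difference in M1 ran from -0.54 to 0.52. Replicates of the 4th set were below the 3 others in 6 of 6 groups, with differences from the mean of the others between -0.88 and -0.45. With the set as a block, M2 minus M0 passed for Gnpnat1, at 0.45 ± 0.11 in KO (adjusted p = 0.00683) and 0.42 ± 0.11 in WT (adjusted p = 0.00921).

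Pgm3 encodes the mutase that moves the phosphate of GlcNAc 6-phosphate to the position needed for the next step. Its level (chr9:86448814-86448873) was 1.74, 1.47, 1.34 and 1.54 in KO M1, against 0.34, 0.48, 0.48 and 0.35 in WT M1. In M0 it was 0.59, 0.04, 0.5 and 0.22 in KO, against 0.6, 0.1, 0.69 and 0.61 in WT. The KO M1 arrays stood above all other arrays of the experiment for this probe, and the WT M1 arrays lay within the range of the M0 arrays. The difference in M1 was 1.11 ± 0.16 or 2.16-fold (limma, adjusted p = 6.35e-06), and it was positive in 4 of 4 sets. Activation changed Pgm3 by 1.19 ± 0.16 in KO (adjusted p = 1.65e-06), whereas the value in WT was -0.09 ± 0.16 (adjusted p = 0.685). Its second probe, A_66_P114412, gave 1.02 ± 0.49 in M1 without passing (adjusted p = 0.0994), although its KO M1 values of -0.31 to -0.03 lay above its WT M1 values of -1.31 to -1.14. The SE of that probe takes in 1 KO M0 array, replicate 3, which read 1.87 beside -1.88 to -0.98 on the others.

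Uap1 encodes the pyrophosphorylase that joins GlcNAc 1-phosphate to UTP and so makes UDP-GlcNAc. Its probe (chr1:172072212-172072271) was at 3.81, 3.84, 3.99 and 3.69 in KO M1, against 2.4, 2.41, 2.18 and 2.11 in WT M1. In M0 it was at 2.36, 2.07, 2.32 and 2.1 in KO, against 2.19, 2.04, 2.42 and 2.39 in WT. The KO M1 arrays stood well above every other array, and the WT M1 arrays overlapped the M0 arrays. The difference in M1 was 1.56 ± 0.11 or 2.95-fold (limma, adjusted p = 3.27e-10), between 1.4 and 1.81 in the 4 sets, and had the largest size of the 9 brightest probes. Activation raised Uap1 by 1.62 ± 0.11 in KO (adjusted p = 6.06e-11), while the value in WT was 0.015 ± 0.105 (adjusted p = 0.925). That WT value was -0.16 with quantile normalization and also did not pass. After IL-4, Uap1 was at 2.02, 1.99, 1.9 and 1.89 in KO M2 and at 1.96, 2.03, 2.02 and 1.87 in WT M2, in both genotypes all below the M0 arrays of that genotype. The M2 minus M0 differences of -0.262 ± 0.105 in KO (adjusted p = 0.112) and -0.290 ± 0.105 in WT (adjusted p = 0.069) did not pass. The WT value did without the 4th set, at -0.33 ± 0.11 (adjusted p = 0.0407), and with the set as a block, at -0.29 ± 0.09 (adjusted p = 0.0308). The KO value did with quantile normalization, at -0.33 ± 0.10 (adjusted p = 0.0356), and with the percentile taken over the probes kept, at -0.30 ± 0.10 (adjusted p = 0.0479).

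**Figure D3:**
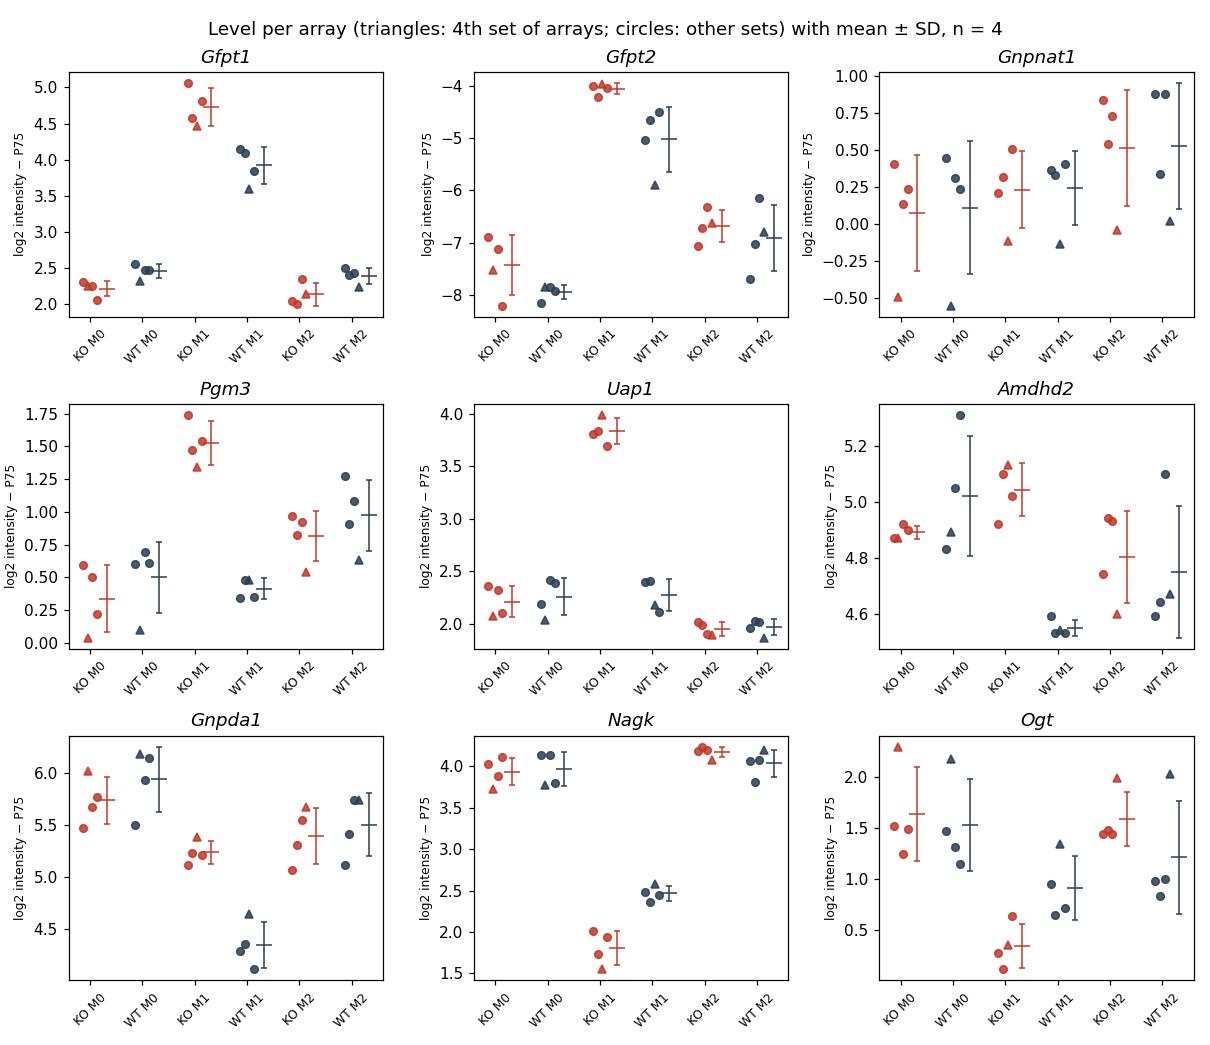
Level of each gene on every array (log2 intensity relative to the 75th percentile) by group, with the mean and SD beside the points (n = 4) and triangles for the 4th set. KO M1 stands apart upward for Pgm3 (1.34 to 1.74) and Uap1 (3.69 to 3.99), and the triangles lie low for Gnpnat1 and high for Gnpda1 and Ogt.

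Amdhd2 encodes the deacetylase that returns GlcNAc 6-phosphate to glucosamine 6-phosphate. Its brightest probe (chr17:24292815-24292874) was at 4.92, 5.1, 5.13 and 5.02 in KO M1, against 4.59, 4.53, 4.54 and 4.53 in WT M1. In M0 it was at 4.87, 4.87, 4.92 and 4.9 in KO, against 4.83, 4.89, 5.05 and 5.31 in WT. The WT M1 arrays were low and close together, and the KO M1 arrays overlapped the M0 arrays. The difference between genotypes in M1 was 0.495 ± 0.118 or 1.41-fold (limma, adjusted p = 0.00169). Activation changed Amdhd2 in WT by -0.47 ± 0.12 (adjusted p = 0.00225), and the value in KO was 0.15 ± 0.12 (adjusted p = 0.288). The scaling mattered here: with quantile normalization the genotype difference in M1 was 0.28 (adjusted p = 0.0536), and activation in KO was -0.42 (adjusted p = 0.00371). The second probe, A_52_P478460, gave a difference of 1.59 ± 0.21 in M1, or 3-fold (adjusted p = 4.42e-06).

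Gnpda1 encodes glucosamine-6-phosphate deaminase, which returns glucosamine 6-phosphate to fructose 6-phosphate and ammonia. It was at 5.11, 5.23, 5.38 and 5.21 in KO M1, against 4.29, 4.35, 4.64 and 4.11 in WT M1. Unstimulated, it was at 5.47, 6.02, 5.67 and 5.77 in KO M0, against 5.5, 6.18, 5.93 and 6.14 in WT M0. Both genotypes were lower in M1 than in M0, and the WT M1 arrays were lowest of all. The difference between genotypes in M1 was 0.88 ± 0.18 or 1.85-fold (limma, adjusted p = 0.000335), and the second probe gave 1.01 ± 0.19 (adjusted p = 0.000188). Activation changed Gnpda1 by -0.50 ± 0.18 in KO (adjusted p = 0.0206) and by -1.59 ± 0.18 in WT (adjusted p = 2.79e-07). The KO value no longer passed without KO M1 replicate 1 (adjusted p = 0.0542) or without KO M0 replicate 2 (adjusted p = 0.0758). Arrays of the 4th set were at or above the highest of the 3 others in 6 of 6 groups, 0.20 to 0.39 over their mean.

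Nagk encodes the kinase that phosphorylates free GlcNAc and starts its salvage. Its brightest probe (chr6:83752479-83752538) was at 2.01, 1.74, 1.55 and 1.94 in KO M1, against 2.48, 2.36, 2.58 and 2.45 in WT M1. Without activation, it was at 4.03, 3.73, 3.88 and 4.11 in KO M0, against 4.14, 3.78, 4.14 and 3.8 in WT M0. All M1 arrays were far below all M0 arrays, and the KO M1 arrays below the WT M1 arrays. The difference between genotypes in M1 was -0.66 ± 0.12, that is 1.58-fold lower in KO (limma, adjusted p = 0.000153). Activation changed Nagk by -2.13 ± 0.12 in KO, 4.37-fold lower, and by -1.497 ± 0.122 in WT, 2.82-fold lower (adjusted p = 1.18e-11 and 4.01e-09). The 2 further probes printed above gave -0.669 ± 0.125 and -0.686 ± 0.125 between genotypes in M1.

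Ogt encodes O-GlcNAc transferase, the only enzyme known to put O-GlcNAc on nuclear and cytosolic proteins, and its messenger is known to be partly kept as a form with a retained intron. It was at 0.27, 0.11, 0.35 and 0.63 in KO M1, against 0.95, 0.64, 1.34 and 0.71 in WT M1. The 2 genotypes did not overlap in M1, though the highest KO array and the lowest WT array almost met. The difference was -0.57 ± 0.27 (limma, adjusted p = 0.0982) and did not pass. With each same-numbered KO and WT pair of a state as a block it was -0.57 ± 0.14 (adjusted p = 0.00566), and without the 4th set -0.43 ± 0.14 (adjusted p = 0.0172). The other probes A_52_P656545 and A_52_P658241 gave -0.98 ± 0.34 (adjusted p = 0.0221) and -1.30 ± 0.46 (adjusted p = 0.0259), the second being well above background on 1 of 4 KO M1 and 4 of 4 WT M1 arrays. Activation changed the brightest probe by -1.30 ± 0.27 in KO, 2.45-fold lower (adjusted p = 0.000375), and the value in WT was -0.62 ± 0.27 (adjusted p = 0.0678). The WT value passed with the set as a block, at -0.62 ± 0.16 (adjusted p = 0.00284), without the 4th set, at -0.54 ± 0.14 (adjusted p = 0.00392), and with the percentile over the probes kept, at -0.74 ± 0.29 (adjusted p = 0.0394). In limma over all probes, activation in WT did not pass for the other probes. It was -0.19 ± 0.34 for A_52_P656545 (adjusted p = 0.677) and -1.05 ± 0.46 for A_52_P658241 (adjusted p = 0.0652).

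Ogt lies on the X chromosome (brightest probe at chrX:98879145-98879204), and its level differed between the sets. Arrays of the 4th set read above the 3 others in 5 of 6 groups, all but KO M1, by 0.53 to 1.09 from their mean. In KO M0 the 4th set was at 2.3 and the others at 1.24 to 1.52, and in WT M0 at 2.18 with the others at 1.15 to 1.47. In KO M1 the 4th set was at 0.35, inside the range of the others, which was 0.11 to 0.63. These are the arrays on which Xist was well above background on 6 of 6, and the part of that in the level of Ogt was not tested.

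**Figure D4:**
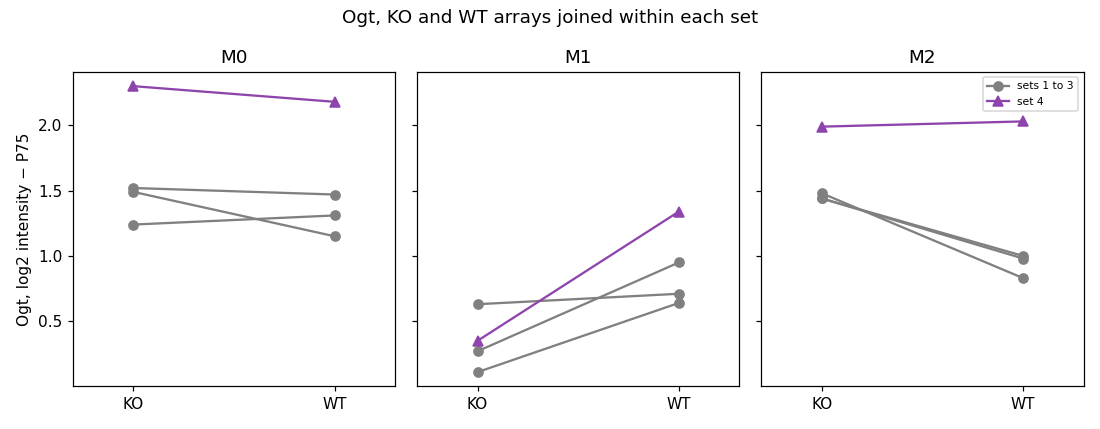
Level of Ogt (log2 intensity relative to the 75th percentile) on the KO and WT array of each set, joined by lines, in M0, M1 and M2. In M1 all 4 lines run upward towards WT, and the 4th set (triangles) lies above the other sets in M0 and M2.

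The question of whether activation acted differently in the 2 genotypes was put to the test of the difference of responses, M1 minus M0 in KO less M1 minus M0 in WT. It uses the same M1 arrays as the comparison of genotypes in M1. It passed for 6 of 9 genes, against 29.8% of all genes, 5 of them positive (15% of all genes) and 1 negative (14.8%). The response was larger in KO for Uap1 (1.61 ± 0.15), Pgm3 (1.27 ± 0.22), Gnpda1 (1.09 ± 0.25), Gfpt1 (1.05 ± 0.19) and Amdhd2 (0.63 ± 0.17), with adjusted p = 1.06e-07, 0.000145, 0.00201, 0.000197 and 0.00641 in that order (limma). For Gnpda1 and Amdhd2 this positive value goes with a fall in WT of -1.59 and -0.47 and values in KO of -0.50 and 0.15. Nagk gave -0.63 ± 0.17 (adjusted p = 0.00787), a deeper fall in KO. Gfpt2 (0.455 ± 0.443), Ogt (-0.675 ± 0.385) and Gnpnat1 (0.02 ± 0.36) did not pass, while Ogt did with the pairs as a block, at -0.68 ± 0.20 (adjusted p = 0.0201). Under quantile normalization Amdhd2 had 0.33 (adjusted p = 0.139).

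Within each genotype, M1 activation moved 7 of 9 genes in KO, against 56.4% of all genes, and 5 of 9 in WT, against 47.8%. In KO 4 rose and 3 fell, against 32.9% and 23.5% of all genes, and in WT 2 rose and 3 fell, against 25.9% and 21.9%. Gfpt1 rose in both genotypes, and Gnpda1 and Nagk fell in both. Gfpt2 is also counted as rising in both, but it was kept for testing only through its signal in M1. Pgm3, Uap1 and Ogt passed in KO, Pgm3 and Uap1 higher and Ogt lower, and Amdhd2 passed in WT as lower.

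**Figure D5:**
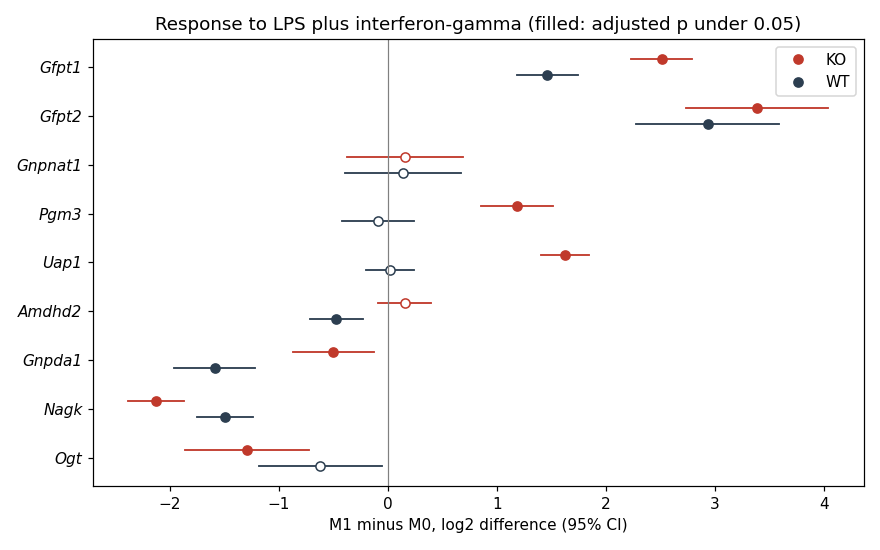
M1 minus M0 log2 difference of each gene with its 95% confidence interval in KO (red, upper of each pair) and WT (dark blue, lower), filled where the adjusted p was under 0.05. Pgm3 and Uap1 lie at 1.19 and 1.62 in KO with WT near 0, and Nagk lies at -2.13 in KO and -1.497 in WT.

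The response to IL-4 was tested in the same way. In M2 against M0, 0 of 9 genes passed limma's test in KO, against 13% of all genes. At an unadjusted p under 0.05 there were 3 of 9 in KO. In WT 2 of 9 passed, against 15.1% of all genes, namely Pgm3 and Gfpt2, the latter not well above background in either group. Pgm3 was at 0.97, 0.82, 0.92 and 0.54 in KO M2, against 0.59, 0.04, 0.5 and 0.22 in KO M0. In WT it was at 1.27, 0.91, 1.08 and 0.63 in M2, against 0.6, 0.1, 0.69 and 0.61 in M0. In each genotype the lowest M2 array lay inside the range of M0. The M2 minus M0 difference was 0.48 ± 0.16 in KO (adjusted p = 0.051) and 0.47 ± 0.16 in WT (adjusted p = 0.0491), on either side of the threshold with nearly the same size. The KO value passed without the 4th set (adjusted p = 0.016). With the set as a block 3 of the 9 genes passed in KO and 5 in WT. Over all 25956 genes that fit called 5913 in KO and 6519 in WT. Besides Gnpnat1, Pgm3 and, in WT, Uap1 and Gfpt2, this was Gnpda1, at -0.34 ± 0.11 in KO (adjusted p = 0.0295) and -0.44 ± 0.11 in WT (adjusted p = 0.00607). For Pgm3, the WT value no longer passed in 17 of 24 fits that left out 1 array. It was 0.34 (adjusted p = 0.185) without WT M0 replicate 2 and 0.37 (adjusted p = 0.168) without WT M2 replicate 1. For the difference of M2 responses between genotypes, 0 of 9 genes passed, with 0 of 9 at an unadjusted p under 0.05 and 0% of all genes.

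Averaged over the 3 states, 3 of 9 genes passed between genotypes, against 28.7% of all genes, namely Uap1 (0.497 ± 0.060), Pgm3 (0.26 ± 0.09) and Gfpt2, all higher in KO. No size is given for Gfpt2, whose probe was well above background on 0 arrays in M0 and M2, and its call was lost with quantile normalization (adjusted p = 0.183) and without the 4th set (adjusted p = 0.0839). This average mixes M1 with 2 states in which none of the 9 passed. Pgm3 no longer passed in 12 of 24 fits that left out 1 array, with adjusted p up to 0.0639. Gnpda1 also passed with the pairs as a block, at 0.19 ± 0.05 (adjusted p = 0.00634).

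Genes around the pathway moved in both directions between genotypes in M1. Of 19 genes for neighbouring hexosamine and sialic acid steps, 6 were higher and 6 lower in KO (median 0.17), against 22.7% and 21.2% of all genes and a median of 0.13. Hk2, a hexokinase, was higher in KO by 1.93 ± 0.21 (limma, adjusted p = 1.58e-07). Gne, the epimerase and kinase that draws UDP-GlcNAc into sialic acid synthesis, differed by 1.92 ± 0.16 (adjusted p = 6.4e-09), and Nans, the next synthase of that route, by 1.755 ± 0.161 (adjusted p = 1.89e-08). Mgea5, which encodes O-GlcNAcase, the enzyme that removes O-GlcNAc, was at 1.08 ± 0.46 without passing (adjusted p = 0.0645).

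Of 20 enzymes that use UDP-GlcNAc, 17 could be measured, and 2 were higher and 9 lower in KO M1 (median -0.51), beside the same 22.7% and 21.2% of all genes. Largest in size were Gcnt1, which makes core branches of O-glycans, at -2.89 ± 0.28, B3gnt8, which extends branched N-glycans, at -2.315 ± 0.095, and Eogt, which puts O-GlcNAc on secreted proteins, at -1.66 ± 0.12. Among 11 enzymes that release GlcNAc or sugars next to it, 2 were higher and 4 lower. These included the lysosomal mannosidase Manba at -1.80 ± 0.14, the cytosolic endoglycosidase Engase at -1.21 ± 0.38 and Hgsnat, a lysosomal acetyltransferase of heparan sulfate breakdown, at 0.77 ± 0.25. All 20 of 20 genes of the unfolded protein response were higher in KO M1 (median 1.24), with Herpud1 at 3.139 ± 0.185, Sdf2l1 at 2.67 ± 0.28 and Dnajb9 at 2.48 ± 0.14. That list was known from earlier results of these data and gives no independent evidence.

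M1 activation of WT cells raised 5 and lowered 8 of the 19 neighbouring genes, where 25.9% of all genes rose and 21.9% fell, with Npl, the lyase of sialic acid, at -4.04 ± 0.56, Hk2 at 2.17 ± 0.21 and the sialic acid exporter of the lysosome Slc17a5 at -1.935 ± 0.677. Of the 17 users of UDP-GlcNAc, 9 rose and 5 fell, with the hyaluronan synthase Has1 at 3.36 ± 0.59, Gcnt1 at -2.45 ± 0.28 and Gcnt2, which branches lactosamine chains, at 2.05 ± 0.30. Of the 11 releasing enzymes 3 rose and 6 fell, with Engase at -2.17 ± 0.38 and Manba at -1.195 ± 0.137. In the unfolded protein response list, 8 rose and 3 fell, with Herpud1 at -2.058 ± 0.185, Ddit3 at 1.55 ± 0.34 and Dnajb11 at 1.01 ± 0.12.

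In WT cells given IL-4, 3 of the 19 neighbouring genes rose and 1 fell, against 6.26% and 8.82% of all genes, with Hk2 at 0.80 ± 0.21 and Nans at 0.49 ± 0.16. Of the users, 2 rose and 4 fell, with Gcnt2 at -1.31 ± 0.30, B3gnt8 at -0.999 ± 0.095 and Eogt at -0.85 ± 0.12. None of the 11 releasing enzymes passed limma's test, with 4 at an unadjusted p under 0.05, whereas 12 genes of the unfolded protein response list rose and 0 fell, led by the disulfide isomerase Pdia4 at 2.18 ± 0.17, Sdf2l1 at 1.68 ± 0.28 and Creld2 at 1.335 ± 0.183.

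Some markers of other cells also differed between genotypes in M1, where 22.7% of all genes were higher and 21.2% lower in KO. Of 8 neutrophil markers, all well above background on every KO M1 and WT M1 array, 3 were higher and 1 lower in KO M1. The higher ones were S100a9 (mean 6.08 in KO M1 and 3.83 in WT M1), Camp (1.92 and -0.36) and Ngp (0.72 and -1.64), and the lower one was Ly6g (-0.22 and 2.53). Their summed level was 6.17 to 7.53 in KO M1, against 4.35 to 6.23 in WT M1 (log2 of the summed scaled intensity). The summed level of 6 dendritic cell markers was 6.02 to 6.67 in KO M1, against 5.25 to 6.03 in WT M1. Of the 5 tested, Siglech was higher (6.33 in KO M1 and 5.60 in WT M1), Zbtb46 lower (-2.21 and -0.55), and Xcr1 was on 0 arrays of either group. The sum of the 4 T cell markers found on the array was 1.29 to 2.21 in KO M1, against 0.36 to 0.62 in WT M1. Lck was higher (1.11 in KO M1 and -0.57 in WT M1), Cd3e did not pass (-0.31 and -0.45), and Cd3g and Cd8a were on 0 arrays. Of 4 B cell markers 2 were higher and 1 lower in KO M1, where their sum was -2.56 to -1.21, against -1.77 to -1.43 in WT M1. Fibroblast markers summed to -0.38 to 1.96 in KO M1, against -0.18 to 0.30 in WT M1, with Lum on 0 arrays, and erythroid markers to 7.60 to 8.25 in KO M1, against 7.69 to 8.21 in WT M1. The macrophage markers summed to 9.27 to 9.88 in KO M1, against 9.54 to 9.79 in WT M1. Of the 7, Cd68 was higher and Mertk lower in KO M1. Of 5 genes that mark the M1 state 1 was higher and 0 lower, namely Il12b at 7.13 in KO M1 and 3.09 in WT M1, while Nos2 (7.82 in KO M1 and 7.88 in WT M1) and Tnf (3.74 and 4.80) did not pass. Of 5 genes that mark the M2 state 4 were higher, among them Mrc1 at 2.54 in KO M1 and -0.10 in WT M1, and Arg1 was lower, at 1.05 in KO M1 and 6.10 in WT M1. The part of these markers in the results above was not tested.

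Across the 6 group means, Uap1 was highest in KO M1 (3.83 ± 0.12, SD), and the 3 next groups, WT M1 and both M0 groups, lay between 2.21 and 2.27 with overlapping ranges. Both M2 groups followed at 1.95 ± 0.07 in KO and 1.97 ± 0.07 in WT. Nagk had its 4 highest groups, both M2 and both M0, between 3.94 and 4.17 with overlapping neighbours, and its lowest, without overlap, were KO M1 at 1.81 ± 0.21 and WT M1 at 2.47 ± 0.09. For Gnpda1 only KO M1 at 5.23 ± 0.11 and WT M1 at 4.35 ± 0.22 were neighbours in the order without overlap. For Ogt only KO M1, at 0.34 ± 0.21, was set apart from its neighbour, WT M1 at 0.91 ± 0.32.

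For 6 genes whose group means spanned at least 1 log2 unit, Gfpt2 being left out as it was below background in 4 of the 6 groups, the genes with the most similar pattern were found among 11501 genes well above background on all arrays, by the root mean square difference of the 6 centred group means. The closest to Gfpt1 were Alkbh5 (0.079), Tmem184a and Zfand3, and to Uap1 Ptpn23 (0.061), Glce and Rybp. Pgm3 was followed most closely by Hnrnpc (0.044), Gmps and Stfa2, and Nagk by Pmf1 (0.056), Xrcc6 and Cbx8. For Gnpda1 these were Gna12 (0.091), Pnpla7 and Uchl3, and for Ogt Mks1 (0.058), Crocc and Btg2. The median distance of all candidates was 0.57 to 1.01 across the 6 genes.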

How the data were processed

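RNA from 24 macrophage cultures was labelled with Cy3 and hybridised to Agilent arrays, per the labels' protocols. The deposited scanner files give each spot's processed signal, an intensity that the authors' Agilent Feature Extraction software had corrected for background, at version 10.7.3.1 per the file headers and 9.1 per the submitters' processing notes. It was not scaled between arrays. Signals were divided by the array's 75th percentile over gene probes (1504 to 2973 units) and taken as log2. Control spots and outlier-flagged spots were left out, spots of a probe averaged, probes well above background on at least 4 arrays kept (39038 of 56605), and the brightest probe taken per gene (25956 genes). The number of arrays limits the precision. Processed signals near background are surrogate values, so dim probes carry bounds only.

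Group means were compared in limma 3.58.1 (R 4.3.3), with Benjamini-Hochberg adjustment over all genes tested and calls under 0.05, over the 10 comparisons of the text. The step was tested on simulated data. Same-numbered KO and WT arrays of a state deviated together (12 correlations, 0.173 to 0.841). They also shared a slide and a set, and arrays of different numbers were not compared. Across states the same numbers gave -0.463 to 0.549, but there a number often stood for different sets. Replicate 1, of 1 set in all groups, gave 0.178 to 0.549, so arrays of a set may go together across states. The main fit used no block. Alternatives were quantile scaling, normexp background correction (offset 50), no filter, probes as units, blocks for replicate, pair, slide and set, the 4th set or single arrays left out, flagged spots kept and, added after seeing the data, a percentile over kept probes. Nothing in the labels states separate animals per replicate beyond the word biological, so p-values measure the spread between these samples.

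The genes and lists were chosen with earlier results of these data known. Beside the 9 genes, the text names from each list the 3 called genes of largest size in KO minus WT in M1 and in each activation of WT, with Mgea5, Xist, Y-linked and marker genes as exceptions, and the 3 genes of closest pattern. Some genes that this rule names are not reported here. A value table of the series was not used, since its identifiers did not match the probes.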

Additional observations from a re-analysis of the deposited data

Results flagged for a closer look

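Among 54 groups of 4 arrays examined (9 genes in 6 groups), 5 held an array far from the other 3, where chance gives about 1 in 20. Gnpnat1 in WT M1 had 1 array at -0.13 beside 0.33 to 0.41, and Pgm3 in WT M0 had 1 at 0.1 beside 0.6 to 0.69. Ogt had 1 array at 1.99 in KO M2 beside 1.44 to 1.48, and 1 at 2.03 in WT M2 beside 0.83 to 1.0. These 4 arrays belong to the 4th set. Amdhd2 in WT M2 had 1 array, replicate 3, at 5.1 beside 4.59 to 4.67, which is not of the 4th set.

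The response to M1 activation differed between KO and WT by limma's test of the difference of responses for 6 genes. It was 1.61 for Uap1, 1.27 for Pgm3, 1.09 for Gnpda1, 1.05 for Gfpt1, 0.63 for Amdhd2 and -0.63 for Nagk, each as KO minus WT in log2 units.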

How the results depend on the processing

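Of 3114 values of the 9 genes in the 10 comparisons under the alternatives, 3014 stayed on their side of the threshold, 50 lost the call and 50 gained it. The sign changed in 91, in 22 differences that lay between -0.05 and 0.23 in the text and had not passed there, so 0 calls turned their direction. Among these were Uap1 in M1 minus M0 in WT, at -0.16 with quantile normalization and -0.1 with the percentile over kept probes, and Amdhd2 in M1 minus M0 in KO, at -0.42 with quantile normalization, where it passed. The cause was not tested. The count of genes called in M2 minus M0 in KO, 0 in the text, was 2 with quantile normalization, 1 with normexp, 1 without a filter, 1 with the replicate block, 3 with the set as a block, 1 without the 4th set and 2 with the percentile over kept probes. In M2 minus M0 in WT, 2 in the text, it was 1 with normexp, 1 without a filter, 5 with the set as a block and 1 with flagged spots kept. Over the 3 states it was 5 with the set as a block, where the text has 3. Over all genes that fit called 10444. With 1 array left out at a time the counts ran from 6 to 7 for KO minus WT in M1, from 2 to 4 over the 3 states, from 6 to 7 and from 5 to 6 for M1 minus M0 in KO and in WT, and from 0 to 1 and from 0 to 2 for M2 minus M0 in KO and in WT. They stayed at 6 for the M1 responses, and at 0 in M0, in M2 and for the M2 responses. In KO minus WT in M1 the count was 5 with quantile normalization, where Gfpt2 and Amdhd2 did not pass. Over all genes that fit called 11346.

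Over all genes, KO minus WT called 14 in M0, and 22 with quantile normalization and 24 without the 4th set. In M2 it called 11, and 79 with the replicate block within state, 28 with the set as a block and 60 without the 4th set. Over the 3 states it called 7441, and 11467 with the pairs as a block. M2 minus M0 called 3371 in KO, and 6360 without a filter and 5913 with the set as a block. It called 3914 in WT, and 6519 with the set as a block and 5872 without the 4th set. The pairs as a block changed the call of Ogt and Gnpda1 as given above and no other call of the 9 genes. The median difference of all genes in KO minus WT in M1 was 0.13 with the percentile and -0.05 with quantile normalization. Gfpt2 is limited by its signal, which passed the background mark on 7 arrays.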
